A study of Mus musculus with 9 samples.

Results

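Glycosaminoglycans are the long sulphated sugar chains carried by proteoglycans, and 37 genes that build, sulphate or trim them were compared across 3 tissues of the embryonic mouse knee. The genes were chosen by symbol for their known roles, with earlier results of these data known. Of these, 5 assemble the linker that joins a chain to its protein, 6 extend chondroitin chains and 8 modify chondroitin and dermatan chains. Another 4 extend heparan chains, 6 modify heparan chains, 6 supply sulphate and sugar donors, and 2 are extracellular sulphatases. Probes named for 35 of the 37 genes were present, Chsy3 and Ndst1 were not analysed here, and 27 were detected well enough to be tested, among 7234 named genes tested in all.

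RNA was measured in the meniscus, a wedge of fibrous cartilage set between the bones of the knee, in the articular cartilage that covers the bone ends, and in the cruciate ligaments that tie these bones together. All samples were total RNA from the hindlimb of CD-1 embryos at embryonic day 16, an outbred stock, with no treatment or genotype named. Each tissue had 3 Illumina bead arrays, and the RNA was amplified by whole-transcriptome amplification before it was labelled. The labels do not say whether the arrays of a tissue came from separate embryos, so every p-value below is set against the spread among these samples alone, and that spread may be technical.

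A chondroitin, dermatan or heparan chain starts with a short sugar linker on a serine of the core protein, grows by alternate addition of a uronic acid and an amino sugar, and is then sulphated by enzymes that draw on the activated sulphate donor PAPS. In cartilage the chondroitin sulphate of aggrecan binds the water that lets the tissue bear load, and loss of the sulphate transporter SLC26A2 or of the PAPS synthase PAPSS2 causes skeletal dysplasia in humans. Heparan sulphate chains are fewer and act mainly by binding growth factors, and the SULF enzymes remove some of their sulphate after secretion.

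The arrays of the ligament stood apart from the other 6. Their median raw signal was 147.4 to 209.7 intensity units against 93.4 to 103.8 on the meniscus and cartilage arrays, and 18.0% to 20.9% of probes were detected against 28.9% to 35.6%. Ligament arrays detected 14 to 19 of the 35 genes, meniscus arrays 27 and cartilage arrays 28 or 29. The authors' processed values had medians of 172.2 to 172.3 on ligament arrays and 99.9 to 100 on the other 6. The labels do not state how these values were normalized. With all ligament arrays apart in this way, this array set and the tissue cannot be told apart. The median named gene was 0.27 higher in meniscus than in ligament on the log2 scale and differed by -0.23 for ligament minus cartilage (0.06 and -0.04 under cyclic loess normalization). Differences are given as measured unless stated, those of genes called against ligament are also given relative to the median gene, and each test used the difference as measured. In meniscus against cartilage the median gene differed by 0.03.

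Markers were checked against the tissue labels. The summed log2 level of 12 chondrocyte markers was 116.9 to 122.1 on cartilage arrays, 89.3 to 97.5 in meniscus and 87.7 to 101.6 in ligament. Between ligament and cartilage 9 of 11 tested markers were called lower, but not Col2a1 (difference -0.52) or Col11a1 (-0.004). Matn3, a cartilage matrilin, was not above background in meniscus or ligament, and Col11a2 was above background on 1 cartilage array only. The sum of 8 tendon and ligament markers was 68.1 to 69.7 in ligament, 64.8 to 67.2 in meniscus and 59.8 to 62.5 in cartilage. However, the tendon marker Tnmd was not above background on any array and Scx on 1 ligament array only. Tnc ran against this order, with differences of 0.95 for meniscus minus ligament and -0.55 for ligament minus cartilage. Endothelial markers (10 genes) summed to 55.0 to 62.5 in meniscus, 47.7 to 48.5 in cartilage and 50.1 to 59.8 in ligament. Cdh5 was above background in meniscus only, and Pecam1 on all meniscus arrays but on 1 array each of cartilage and ligament, by another probe. Of the 8 tested, 6 had a higher mean in meniscus than in ligament. The other 2 were Emcn (6.16 in meniscus, 7.02 in ligament) and Tek (6.05 and 6.16). For 9 macrophage markers the sums were 48.4 to 57.1, 43.2 to 44.8 and 46.9 to 59.7 in the same order. In cartilage 5 of the 9 were not above background, among them Csf1r, which was so on 1 meniscus and 1 ligament array. Tyrobp was above background on all 3 cartilage arrays, Adgre1 and Mrc1 on 2 each and Lyz2 on 1. The 5 erythroid markers summed to 35.7 to 37.9, 31.2 to 34.3 and 37.3 to 42.0, and the 9 skeletal muscle markers to 50.4 to 53.2, 49.1 to 50.7 and 47.1 to 54.4. Of the hypertrophic cartilage and bone markers, Col10a1, Ihh and Bglap were not above background on any array. Mmp13 was above background on 1 meniscus array, or 2 by any of its probes, and Ibsp on 1 ligament array. Spp1 was not analysed here. The part of other cell types in the differences below was not tested, and in whole tissue fewer cells of a type and less RNA per cell cannot be told apart.

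**Figure D1:**
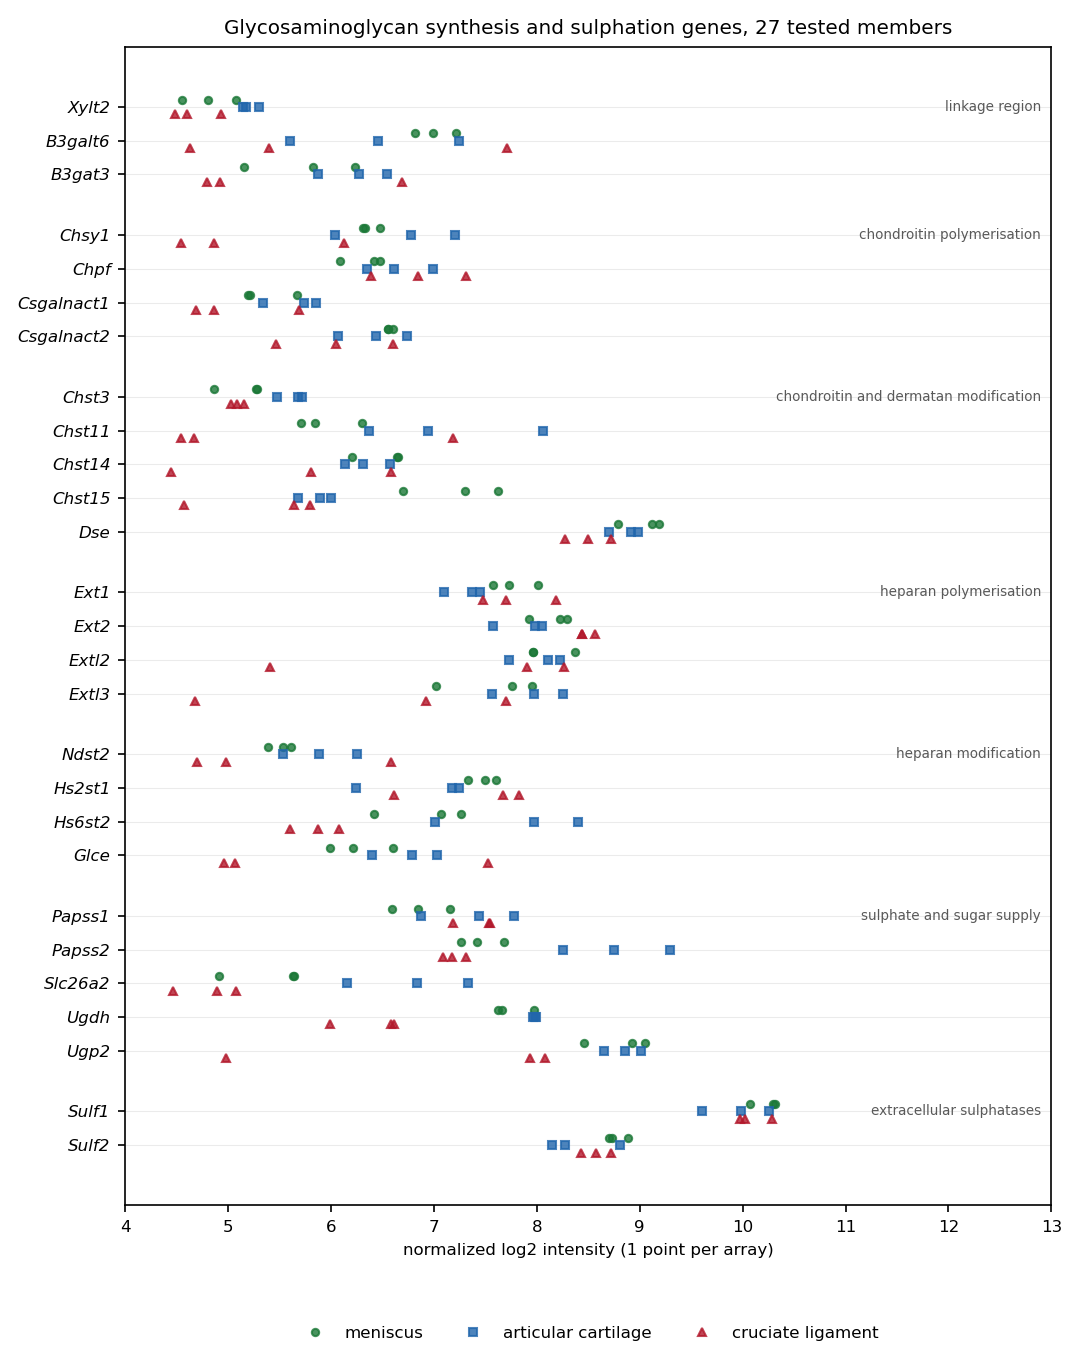
Normalized log2 intensity of the 27 tested genes, ordered by step, with 1 point per array (circles meniscus, squares articular cartilage, triangles cruciate ligament). Papss2 and Slc26a2 lie higher on all 3 cartilage arrays than on any other array, Ugdh lower on all 3 ligament arrays and Chst15 higher on all 3 meniscus arrays, while genes such as Ugp2 and Extl2 have 1 ligament array far below the other ligament arrays.

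The genes that differed beyond the replicate spread lay mainly in the supply of sulphate and sugar donors and in single enzymes of the sulphation steps, and most separated ligament from cartilage. A gene was called when its limma p was under 0.05 after Benjamini-Hochberg adjustment across all 9166 features. Between ligament and cartilage 5 of 27 fell and 0 rose, against a background of 11.3% of named genes called lower and 3.84% called higher. The 5 were Ugdh, Papss2, Slc26a2, Hs6st2 and Chsy1. A second detected probe of Hs6st2 went the other way, and without that gene the count is 4 of 27, or 14.8%. Between meniscus and ligament Ugdh and Chst15 were higher in meniscus and 0 were lower, against 9.32% and 2.63% of named genes. Between meniscus and cartilage limma called 0 of 27, against 0.415% of named genes higher and 0.346% lower, and 1 gene was higher and 4 were lower where p was taken without adjustment at 0.05 (background 6.39% and 5.02%). By the same unadjusted rule 6 were higher and 0 lower in meniscus than in ligament (22.9% and 6.43%), and 1 was higher and 10 lower in ligament than in cartilage (8.50% and 23.1%). Groups did not overlap for 3 genes higher and 5 lower in meniscus than in cartilage (14.7% and 11.3% of named genes), 6 higher and 2 lower in meniscus than in ligament (23.7% and 7.91%), and 2 higher and 7 lower in ligament than in cartilage (9.44% and 24.1%). As shares of the 27 genes these are 18.5% called lower in ligament than in cartilage, 37% lower there without adjustment and 25.9% lower there without overlap, so the share without overlap is close to its background. The shares without overlap in meniscus against ligament, 22.2% higher and 7.41% lower, are close to theirs as well. A moderated F test over the 3 tissues called 5 of 27, namely Ugdh, Papss2, Slc26a2, Chst15 and Hs6st2, against 14.7% of named genes.

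These counts depended on single arrays. Without ligament array 1, 8 genes fell between ligament and cartilage, with Csgalnact1, Glce and Ndst2 added, and 5 were higher in meniscus than in ligament, with Chst14, Chsy1 and Glce added. Without ligament array 2, B3galt6 was also called higher in meniscus than in ligament, and Extl3 took the place of Chsy1 among the 5 genes lower in ligament than in cartilage. Without ligament array 3, 7 genes were lower in ligament than in cartilage, with B3gat3, Chst11 and Ugp2 added and Chsy1 lost. Hs6st2 was also called higher in meniscus than in ligament without cartilage array 1. Chst15 lost its call between meniscus and ligament without meniscus array 1 or 2, which left Ugdh alone. The F test called 3 genes without cartilage array 2 or 3, where Hs6st2 and Slc26a2 no longer passed. The 3 contrasts share arrays, so their values are not independent of one another. All 27 tested genes passed the detection filter in cartilage, 24 in meniscus and 10 in ligament, so the counts above cover genes that were all detected on every cartilage array.

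**Figure D2:**
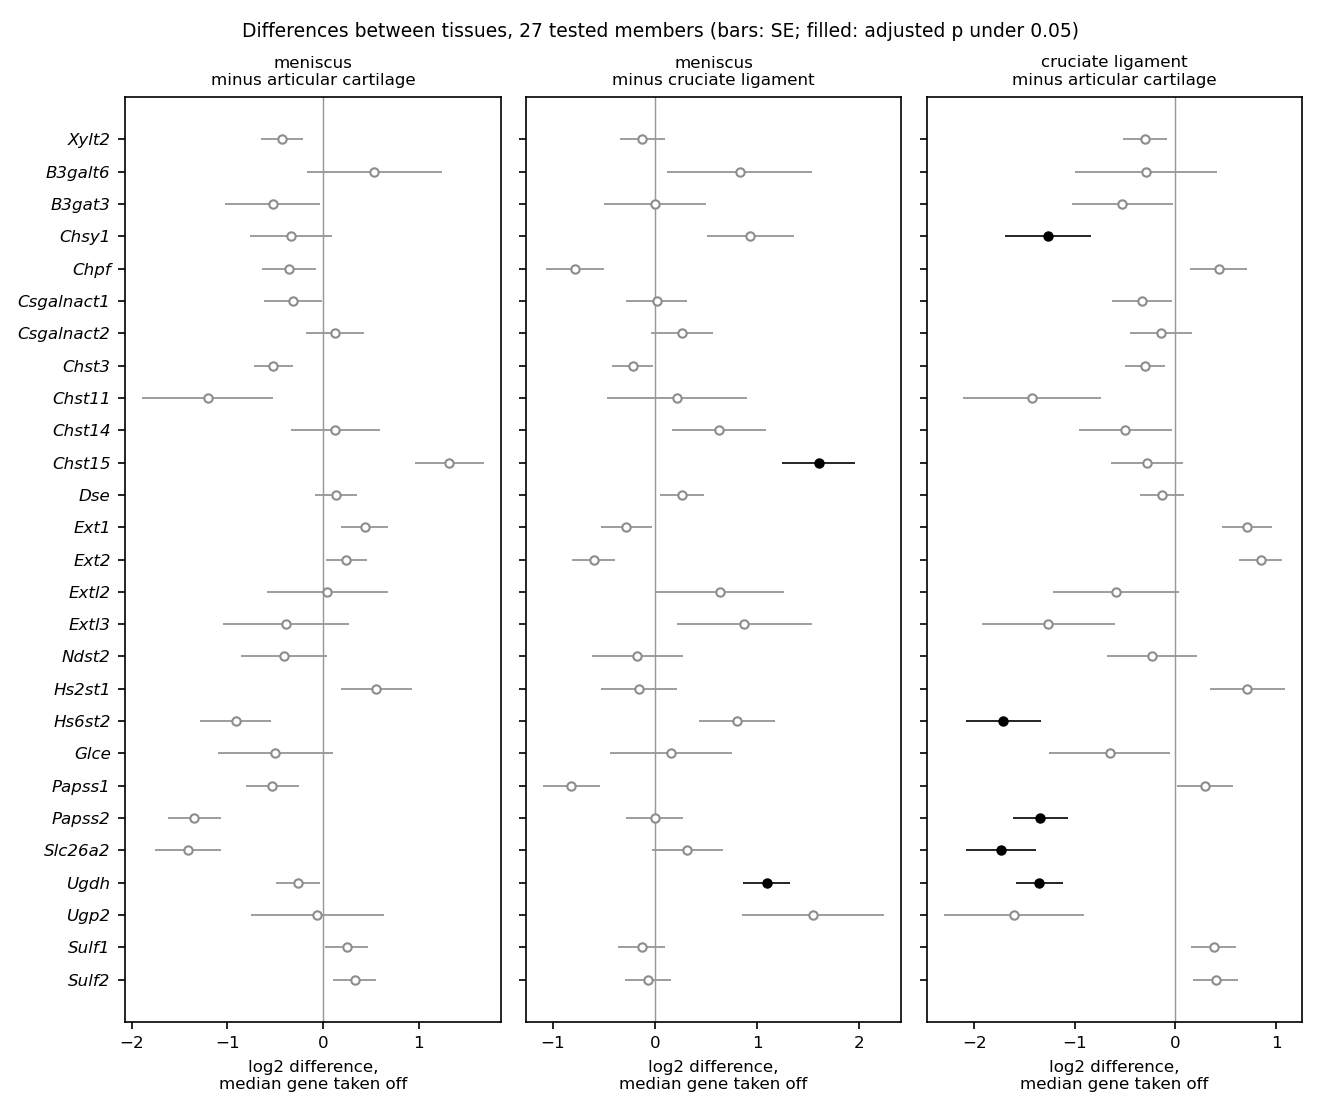
Log2 difference of each of the 27 tested genes in the 3 contrasts, with the median named gene taken off. Bars show 1 SE from the limma fit of all 9 arrays, and filled points passed the test. The filled points are Chst15 and Ugdh in the meniscus and ligament contrast and Chsy1, Hs6st2, Papss2, Slc26a2 and Ugdh in the ligament and cartilage contrast, with none in meniscus against cartilage.

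Sulphate and sugar supply held the most called genes, with 3 of its 5 tested genes lower in ligament than in cartilage, against 11.3% of named genes. Slc26a2, among the 3, passed the detection filter through cartilage alone. The median difference of the 5 genes was -1.59, or -1.35 relative to the median gene. Papss2 makes PAPS, the sulphate donor of every sulphotransferase. Its log2 level was 8.26, 9.30 and 8.75 in cartilage, 7.42, 7.68 and 7.27 in meniscus, and 7.08, 7.32 and 7.18 in ligament. Cartilage lay above all 6 other arrays, and meniscus and ligament overlapped. The ligament level was 1.58 ± 0.28 below that of cartilage, a difference of -1.34 and 2.54-fold lower relative to the median gene (limma, adjusted p = 0.0077). A second probe differed by -1.95. Throughout, ± gives the SE from the limma fit of all 9 arrays, 3 per tissue. It rests on a spread pooled over the 3 tissues and moderated across genes. Meniscus differed from cartilage by -1.31 ± 0.28, which did not pass in the fit of all 9 arrays (limma, adjusted p = 0.0752) but passed with the 6 meniscus and cartilage arrays alone and in the authors' processed values. The adjusted p of this difference ranged from 0.0174 to 0.269 over its alternatives, and the second probe differed by -1.49.

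Slc26a2, the plasma membrane sulphate transporter, showed a like order of tissues. Its level was 6.16, 7.33 and 6.84 in cartilage, 5.64, 5.63 and 4.91 in meniscus and 4.46, 4.89 and 5.08 in ligament. All cartilage arrays lay above all others, and no ligament array had the probe above background. Slc26a2 was therefore at least 1.84-fold lower in ligament than in cartilage, or at least 1.57-fold relative to the median gene (log2 difference of the measured means -1.97 ± 0.35; limma, adjusted p = 0.00763). Here and below such a bound sets the mean of the bright tissue against a floor in the dim one: on each dim array, the floor was the weakest signal of any detected probe, or the signal of the gene's probe where that was higher. Meniscus differed from cartilage by -1.38 ± 0.35 without passing (limma, adjusted p = 0.127).

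Ugdh, which oxidises UDP-glucose to the UDP-glucuronic acid built into every chondroitin and heparan chain, set ligament apart from both other tissues. It stood at 7.99, 7.97 and 7.98 in cartilage, 7.97, 7.66 and 7.63 in meniscus and 6.61, 5.99 and 6.58 in ligament. Every ligament array lay below every other array, and meniscus overlapped cartilage. The ligament level fell by 1.59 ± 0.23 against cartilage, or by 1.35 and 2.55-fold relative to the median gene (limma, adjusted p = 0.00381). Meniscus was higher than ligament by 1.36 ± 0.23, or 1.09 and 2.13-fold relative to the median gene (limma, adjusted p = 0.00842). Both differences of Ugdh passed under every alternative run, with adjusted p-values of 0.00157 to 0.0215 and 0.00392 to 0.0403.

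The other supply genes did not pass. Ugp2, which makes the UDP-glucose that Ugdh uses, read 7.93, 8.07 and 4.98 in ligament, where 1 array was far below its partners, against 8.65, 9.01 and 8.86 in cartilage and 9.05, 8.46 and 8.92 in meniscus. No ligament array reached any other, yet the difference of -1.84 ± 0.70 from cartilage did not pass (limma, adjusted p = 0.104). Without ligament array 3 it was -0.83 and passed at an adjusted p of 0.0499. Papss1, the other PAPS synthase, read 7.44, 7.78 and 6.88 in cartilage, 6.85, 7.16 and 6.59 in meniscus and 7.19, 7.53 and 7.55 in ligament. Ligament and cartilage overlapped and differed by 0.06 ± 0.28, whereas Papss2 differed by -1.58 in the same contrast, though the difference between the genes was not tested. Slc35d1, a transporter that carries UDP-sugars into the endoplasmic reticulum, was detected on 1 meniscus array and was not tested.

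**Figure D3:**
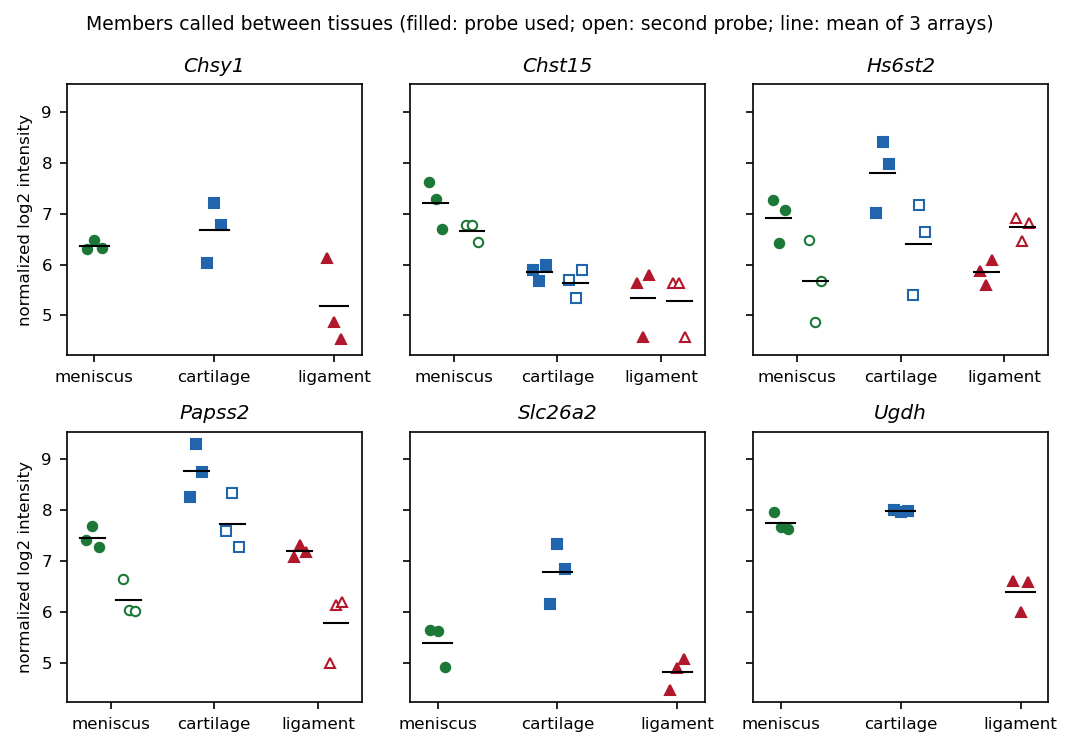
Normalized log2 intensity of the 6 genes called in any contrast, by tissue, with filled points for the probe used, open points for a second detected probe and lines for the mean of 3 arrays. Both probes of Papss2 and of Chst15 order the called tissues alike, whereas the second probe of Hs6st2 is not lower in ligament than in cartilage.

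The promoters of the called genes are shown because Ugdh, Papss2 and the probe used for Hs6st2 were lower in ligament than in cartilage, while Chst15 was called only between meniscus and ligament. RefSeq windows (build GRCm38.p6) ran from 250 bases before to 50 after the transcript start, and those of a single chromosome were left out. Windows were searched for 29 of the 37 genes, among them 4 of the 6 called genes. The most upstream start is shown where a gene had several. Motifs searched on both strands are in capitals: GGGCGG, a letter string bound by SP factors, the TATA string TATAAA, the string CCAAT, and a pair of strings bound by SOX factors, ACAATG and also ACAAAG. The sequences are given 5′ to 3′ on the strand of the gene.
Ugdh, chr5:65435793-65436092, minus strand: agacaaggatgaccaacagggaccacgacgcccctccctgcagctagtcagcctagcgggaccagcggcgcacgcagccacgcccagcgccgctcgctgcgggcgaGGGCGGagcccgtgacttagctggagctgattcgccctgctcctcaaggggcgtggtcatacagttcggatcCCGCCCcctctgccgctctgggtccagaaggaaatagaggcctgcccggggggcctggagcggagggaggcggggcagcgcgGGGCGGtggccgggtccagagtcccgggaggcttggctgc
Papss2, chr19:32595465-32595764, plus strand: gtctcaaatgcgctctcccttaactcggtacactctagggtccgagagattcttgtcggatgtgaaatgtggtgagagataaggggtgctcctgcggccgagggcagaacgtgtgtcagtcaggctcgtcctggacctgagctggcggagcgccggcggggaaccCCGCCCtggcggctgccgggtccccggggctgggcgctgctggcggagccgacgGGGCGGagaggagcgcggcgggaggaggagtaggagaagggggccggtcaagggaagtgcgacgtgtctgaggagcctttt
Chst15, chr7:132317179-132317478, minus strand: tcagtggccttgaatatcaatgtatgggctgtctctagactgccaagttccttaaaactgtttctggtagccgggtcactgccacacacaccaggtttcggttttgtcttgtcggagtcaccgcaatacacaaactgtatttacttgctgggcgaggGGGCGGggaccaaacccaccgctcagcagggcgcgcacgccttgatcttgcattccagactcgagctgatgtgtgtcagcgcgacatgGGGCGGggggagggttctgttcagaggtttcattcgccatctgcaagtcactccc
Hs6st2, chrX:51681553-51681852, minus strand: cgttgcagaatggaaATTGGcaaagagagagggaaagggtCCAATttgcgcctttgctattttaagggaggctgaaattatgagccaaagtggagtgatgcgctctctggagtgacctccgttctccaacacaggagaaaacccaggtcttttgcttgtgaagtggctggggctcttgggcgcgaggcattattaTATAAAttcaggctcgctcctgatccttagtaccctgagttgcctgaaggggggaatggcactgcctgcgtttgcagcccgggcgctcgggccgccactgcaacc

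The window of Ugdh held 3 copies of GGGCGG or its reverse complement, and those of Papss2 and Chst15 held 2 each. That string occurred in 35.7% of the 32851 windows searched, here called all windows, and in 26 of the 38 windows of the 29 genes. The Hs6st2 window held none, but had 1 TATAAA, found in 13.6% of all windows, and 2 CCAAT, found in 37.4%. Neither ACAATG nor ACAAAG occurred in any of the 4 windows, against 12.6% and 18.7% of all windows. The GC content was 71.0% for Ugdh, 66.3% for Papss2, 55.0% for Chst15 and 53.7% for Hs6st2, beside a median of 52.7% over all windows. A match of letters is a description and not a binding site.

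The 5 tested genes that sulphate or epimerise chondroitin and dermatan held 1 call, Chst15, in meniscus against ligament. Chst15 adds a second sulphate to already sulphated N-acetylgalactosamine of chondroitin sulphate, which gives the E-type disaccharide. Its level was 7.62, 7.30 and 6.70 in meniscus, 5.89, 5.68 and 5.995 in cartilage and 5.64, 4.58 and 5.80 in ligament. All meniscus arrays lay above all others, and the probe was not above background in ligament. Meniscus was at least 2.48-fold higher than ligament, or at least 2.07-fold relative to the median gene (log2 difference of the measured means 1.87 ± 0.36; limma, adjusted p = 0.0125), and a second probe was higher by 1.38. This call was lost without meniscus array 1 or 2, at an adjusted p of at most 0.0538. Against cartilage, Chst15 differed by 1.35 ± 0.36 with no overlap of arrays and did not pass (limma, adjusted p = 0.151; 0.0197 to 0.453 over its alternatives). It passed there with the 6 meniscus and cartilage arrays alone, in the authors' processed values and with a separate weight per tissue.

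The remaining enzymes of this step showed no call. Dse, the epimerase that turns glucuronic into iduronic acid and so makes dermatan sulphate, read 9.18, 8.79 and 9.12 in meniscus, 8.91, 8.70 and 8.98 in cartilage and 8.50, 8.28 and 8.72 in ligament. Every meniscus array lay above every ligament array, but the difference of 0.53 ± 0.22 did not pass (limma, adjusted p = 0.135). Chst14, the 4-O-sulphotransferase of dermatan, read 6.58, 5.80 and 4.44 in ligament, 6.65, 6.64 and 6.21 in meniscus and 6.31, 6.57 and 6.13 in cartilage, so that the spread of the ligament arrays covered the other tissues' values at its top. Chst11, the chondroitin 4-O-sulphotransferase that cartilage development requires in mice, read 6.37, 8.06 and 6.95 in cartilage, 6.30, 5.71 and 5.84 in meniscus and 4.67, 4.55 and 7.19 in ligament. All cartilage arrays exceeded all meniscus arrays, by 1.17 ± 0.69 in the mean, which did not pass (limma, adjusted p = 0.6). This SE also draws on the ligament arrays, where the SD was 1.49, against 0.86 in cartilage and 0.31 in meniscus. Against ligament the difference of -1.66 ± 0.69 did not pass (adjusted p = 0.13), and without ligament array 3, the high one, it passed at 0.00941. Chst3, which sulphates position 6 of chondroitin, read 5.68, 5.48 and 5.72 in cartilage, 4.86, 5.28 and 5.27 in meniscus and 5.16, 5.02 and 5.09 in ligament. Cartilage was above both other tissues on every array with differences of -0.49 and -0.54 that did not pass, the probe was not above background in ligament, and its second probe did not differ that way from meniscus (0.01). Chst7, Chst12 and Ust were detected on 2 arrays at most and were not tested.

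Chain extension of chondroitin held 1 call among 4 tested genes. Chsy1, a chondroitin synthase with both transferase activities of the growing chain, read 6.04, 7.21 and 6.78 in cartilage, 6.31, 6.48 and 6.33 in meniscus and 6.12, 4.86 and 4.54 in ligament. One ligament array lay within the range of cartilage and the others lay below it. Chsy1 was lower in ligament than in cartilage by 1.498 ± 0.43 on the log2 scale, 2.40-fold relative to the median gene (limma, adjusted p = 0.0438). Of all the calls among the 27 genes this one was lost most often, in 13 of the alternatives, among them leaving out any of 7 single arrays, all except cartilage array 1 and ligament array 1, and taking the median gene off before the test (adjusted p of 0.00767 to 0.149 over all alternatives).

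Chpf, the partner that chondroitin synthases need for polymerisation, ran the other way without passing. It read 6.39, 6.84 and 7.31 in ligament, 6.61, 6.99 and 6.35 in cartilage and 6.41, 6.08 and 6.48 in meniscus, and the ligament and cartilage values overlapped (difference 0.20 ± 0.29). Csgalnact1 and Csgalnact2 start the chondroitin chain by adding the first N-acetylgalactosamine. Csgalnact1 read 5.34, 5.85 and 5.74 in cartilage, 5.21, 5.19 and 5.67 in meniscus and 5.68, 4.68 and 4.87 in ligament, where the probe was not above background. Csgalnact2 read 6.07, 6.43 and 6.74 in cartilage, 6.60, 6.56 and 6.55 in meniscus and 6.60, 5.46 and 6.05 in ligament. The tissues overlapped for both genes, and neither passed in any contrast. Chpf2 was not above background on any array.

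The linker enzymes gave no call among 3 tested. Xylt2, which adds the first xylose to the core protein, was weak, at 5.15, 5.18 and 5.30 in cartilage, 4.55, 4.80 and 5.08 in meniscus and 4.60, 4.48 and 4.93 in ligament. Cartilage was highest on every array, by 0.54 ± 0.22 over ligament (limma, adjusted p = 0.127) and 0.40 ± 0.22 over meniscus (0.575), and the probe was not above background in ligament. B3galt6, the galactosyltransferase that adds the second galactose of the linker, read 4.63, 7.71 and 5.40 in ligament against 5.60, 7.24 and 6.46 in cartilage and 6.99, 7.21 and 6.81 in meniscus. The ligament arrays thus spanned the whole range of the other tissues. B3gat3, which closes the linker with glucuronic acid, read 4.92, 4.80 and 6.69 in ligament, 6.27, 5.88 and 6.54 in cartilage and 6.23, 5.15 and 5.83 in meniscus, and it passed in no contrast in the fit of all 9 arrays. Xylt1 and B4galt7 were detected on 2 and 3 arrays and were not tested.

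Heparan chain extension held no call among its 4 tested genes. Ext1 and Ext2 encode the co-polymerase that extends heparan sulphate. Ext2 read 8.57, 8.44 and 8.44 in ligament, 8.29, 7.92 and 8.23 in meniscus and 7.57, 7.98 and 8.05 in cartilage. Every ligament array lay above every other array, yet the difference from cartilage of 0.61 ± 0.21 did not pass (limma, adjusted p = 0.0818). Relative to the median gene it was 0.85, and with the median gene taken off before the test, an alternative chosen after the data were seen, Ext2 passed at 0.0331. Ext1 read 7.47, 7.71 and 8.19 in ligament, 8.01, 7.73 and 7.57 in meniscus and 7.45, 7.37 and 7.10 in cartilage. Cartilage was the lowest on every array for Ext1, by 0.48 ± 0.25 against ligament (adjusted p = 0.212) and 0.47 ± 0.25 against meniscus (0.554). Extl2 and Extl3, N-acetylglucosaminyltransferases related to the polymerase, each had 1 ligament array far below its partners. Extl2 read 7.91, 8.27 and 5.41 in ligament, 7.96, 8.37 and 7.96 in meniscus and 7.73, 8.23 and 8.11 in cartilage. Extl3 read 4.68, 7.70 and 6.92 in ligament, 7.02, 7.95 and 7.76 in meniscus and 8.26, 7.97 and 7.56 in cartilage, and its 3 other detected probes differed by -1.15 to -0.22 between ligament and cartilage.

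Heparan modification held 1 call among 4 tested genes, and it did not hold for both probes. Hs6st2 adds sulphate at the 6-O position of heparan glucosamine. The probe used read 7.01, 8.40 and 7.97 in cartilage, 7.26, 6.42 and 7.07 in meniscus and 5.87, 5.61 and 6.08 in ligament. Ligament lay below all other arrays, with a difference from cartilage of -1.94 ± 0.37, or 3.27-fold lower relative to the median gene (limma, adjusted p = 0.0106). The second detected probe read 5.41, 7.17 and 6.63 in cartilage and 6.92, 6.46 and 6.81 in ligament, a difference of 0.33 that goes the other way, so the direction of Hs6st2 is uncertain. With the mean of both probes the call was lost at an adjusted p of 0.223. Hs2st1, the 2-O-sulphotransferase, read 6.25, 7.24 and 7.18 in cartilage, 7.60, 7.34 and 7.49 in meniscus and 6.61, 7.82 and 7.67 in ligament, and passed in no contrast. On the probe used for Hs2st1, meniscus exceeded cartilage on every array, by 0.59 ± 0.37 (limma, adjusted p = 0.642). Its second detected probe differed by 0.37 there, with overlap of the arrays. For ligament minus cartilage that second probe gave -0.43, where the probe used gave 0.48, and it was not above background in ligament. Glce, the heparan epimerase, read 7.52, 5.06 and 4.96 in ligament, 5.99, 6.60 and 6.22 in meniscus and 6.40, 7.03 and 6.78 in cartilage. Ndst2, an N-deacetylase and N-sulphotransferase, had the same ligament array on top, at 6.59 against 4.70 and 4.98, beside 5.54, 5.61 and 5.39 in meniscus and 6.25, 5.54 and 5.88 in cartilage. Hs6st1 was detected on 1 ligament array and was not tested.

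Sulf1 and Sulf2, the secreted enzymes that remove 6-O-sulphate from heparan, were detected on all 9 arrays. Sulf1 read 10.31, 10.08 and 10.30 in meniscus, 9.98, 9.61 and 10.26 in cartilage and 10.03, 9.97 and 10.29 in ligament. Sulf2 read 8.73, 8.70 and 8.89, then 8.15, 8.27 and 8.81, then 8.72, 8.43 and 8.58 in the same order. For the probes used, the tissues overlapped in every contrast, the differences were between 0.13 and 0.36 with SEs of 0.23, and neither gene passed. Relative to the median gene, those between meniscus and ligament turned to -0.13 and -0.07. The second detected probe of Sulf1 read 10.09, 9.67 and 9.59 in meniscus, 8.92, 8.59 and 9.34 in cartilage and 8.81, 8.99 and 9.37 in ligament. On that probe meniscus lay above all other arrays, by 0.83 over cartilage and 0.72 over ligament, while ligament differed from cartilage by 0.11. The second Sulf2 probe differed by 0.53 between meniscus and cartilage and 0.88 between meniscus and ligament, and by -0.35 for ligament minus cartilage, where the probe used gave 0.17. The extent to which meniscus differs in these genes therefore depends on the probe.

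The ligament arrays varied more among themselves than the others. The highest and lowest ligament array differed by more than 2-fold for 13 of the 27 genes, against 6 in cartilage and 1 in meniscus. Among all named genes the shares were 47.5%, 13.9% and 11.0%. Ligament ranges exceeded 4-fold for 7 of the 27 genes, and none of the 27 did so in the other tissues. Among all named genes the shares over 4-fold were 14.1% in ligament, 0.705% in cartilage and 0.567% in meniscus. The 7 were Ugp2 (3.09 on the log2 scale), B3galt6 (3.08), Extl3 (3.02), Extl2 (2.86), Chst11 (2.64), Glce (2.56) and Chst14 (2.14). The outlying array was not the same one each time: array 3 was low for Ugp2 and Extl2 and array 1 for Extl3, while array 3 was high for Chst11, array 1 for Glce and array 2 for B3galt6. Markers also differed among the ligament arrays. From array 1 to array 3, Matn1 read 5.55, 7.45 and 10.08 and Col9a1 6.29, 5.66 and 9.62. Among tested chondrocyte markers, array 3 was not the highest for Acan, Cnmd and Col11a1. The tested macrophage markers were all highest on array 1, with Tyrobp at 9.17, 7.81 and 6.70. Whether unlike tissue content bears on the outlying values was not tested. The median SD of the 27 genes was 0.53 in ligament, 0.33 in cartilage and 0.23 in meniscus, beside 0.50, 0.26 and 0.25 for all named genes.

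**Figure D4:**
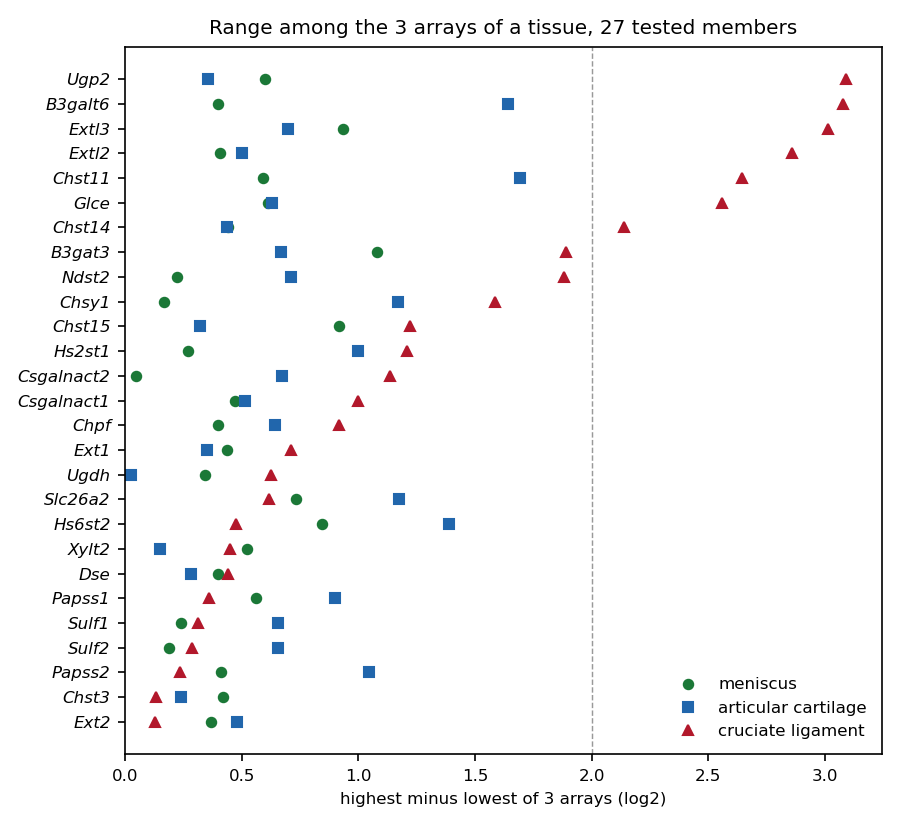
Range among the 3 arrays of a tissue (highest minus lowest, log2 units) for the 27 tested genes, sorted by the range in ligament, with a dashed line at 2, a 4-fold range. Triangles for ligament pass the line for 7 genes, and no circle for meniscus or square for cartilage does.

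With the median gene of each contrast taken off, cartilage was the brightest tissue for 14 of the 27 genes (51.9%, or 48.1% by the second probe of Hs6st2), ligament for 7 (25.9%) and meniscus for 6 (22.2%). The shares among all named genes were 31.8%, 39.4% and 28.8%. The detection filter bears on this, because 3 of the 27, Xylt2, Chst3 and Slc26a2, passed through cartilage alone, 14 through meniscus and cartilage, and 10 through all 3 tissues. By step, cartilage was the brightest for 4 of the 5 supply genes, 3 of the 4 that modify heparan (2 by the second probe of Hs6st2), 2 of the 3 of the linker, 2 of the 4 that extend chondroitin and 2 of the 5 that modify it. It was the brightest for 1 of the 4 genes that extend heparan and for neither Sulf gene.

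Other genes of the pathway showed a related split. Of 27 further synthesis genes 15 were tested. Between ligament and cartilage 6 (40.0%) were lower and 1 (6.67%) higher, against 11.3% and 3.84% of named genes. The detection filter bears on this count. Fam20b, among the 6, passed it through cartilage alone, and Gfpt2, Uap1 and Pgm3 passed through meniscus and cartilage only. Gfpt2, an enzyme that starts the hexosamine route to UDP-N-acetylglucosamine, read 6.30, 7.13 and 7.02 in cartilage and 4.96, 4.91 and 4.91 in ligament, where it was not above background, and was at least 1.89-fold lower there, or at least 1.61-fold relative to the median gene (limma, adjusted p = 0.00262). Uap1, which completes UDP-N-acetylglucosamine, read 6.01, 6.23 and 6.33 against 4.73, 4.73 and 4.77 and was at least 1.23-fold lower, or 1.04-fold relative to the median gene (adjusted p = 0.00315). Fam20b, the kinase that phosphorylates the linker xylose, read 6.001, 6.67 and 6.16 in cartilage and 4.41, 4.41 and 4.56 in ligament, at least 1.30-fold lower, or 1.11-fold relative to the median gene (adjusted p = 0.00396). Uap1 and Fam20b were not above background in ligament either. Pxylp1, the phosphatase that removes that phosphate, read 8.95, 9.14 and 8.39 against 7.07, 7.29 and 7.33, which was 2.58-fold lower relative to the median gene (adjusted p = 0.00428). For each of these 4 genes, cartilage and ligament arrays did not overlap, and the call held without any single array. Gnpnat1 and Pgm3, which act between Gfpt2 and Uap1, were also called lower. Gnpnat1 fell by 0.92 relative to the median gene. The Pgm3 probe was not above background in ligament, where it was at least 1.08-fold lower as measured, less than the shift of the median gene. The call of Gnpnat1 was lost without cartilage array 2 or 3, and that of Pgm3 without any array but ligament array 1.

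Dsel, a relative of the dermatan epimerase Dse, was the gene that rose in ligament. It read 7.65, 7.83 and 8.25 there, 6.77, 6.81 and 6.64 in cartilage and 6.57, 6.41 and 6.29 in meniscus. Ligament lay above all other arrays, by 1.17 ± 0.22 over cartilage and 1.49 ± 0.22 over meniscus, or 2.64-fold and 3.37-fold relative to the median gene (limma, adjusted p = 0.00938 and 0.00554). Dse itself differed by -0.37 ± 0.22 between ligament and cartilage without passing (adjusted p = 0.277).

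Between meniscus and ligament 5 of these 15 genes (33.3%) were higher and 2 (13.3%) lower, against 9.32% and 2.63% of named genes. Gnpnat1 was detected in both tissues and higher in meniscus by 1.44 ± 0.26 (2.25-fold relative to the median gene; limma, adjusted p = 0.0101). The probes of the other 4 were not above background in ligament. Pgm3 was at least 1.43-fold higher (0.0119), or at least 1.19-fold relative to the median gene. Uap1 was at least 1.12-fold higher as measured (0.00592), less than the shift of the median gene, and for Gfpt2 and Fam20b no fold could be bounded. Slc35b2, a carrier of PAPS into the Golgi, was lower along with Dsel, but its call was lost when any single one of the 9 arrays was left out. The count was 4 without meniscus array 2, cartilage array 3 or ligament array 2, and 3 without meniscus array 3, where Dsel, Gnpnat1 and Uap1 were called. Between meniscus and cartilage limma called 0 of the 15, against 0.415% of named genes higher and 0.346% lower. Without adjustment p was under 0.05 for 0 higher and 4 lower genes, against 6.39% and 5.02% of named genes.

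**Figure D5:**
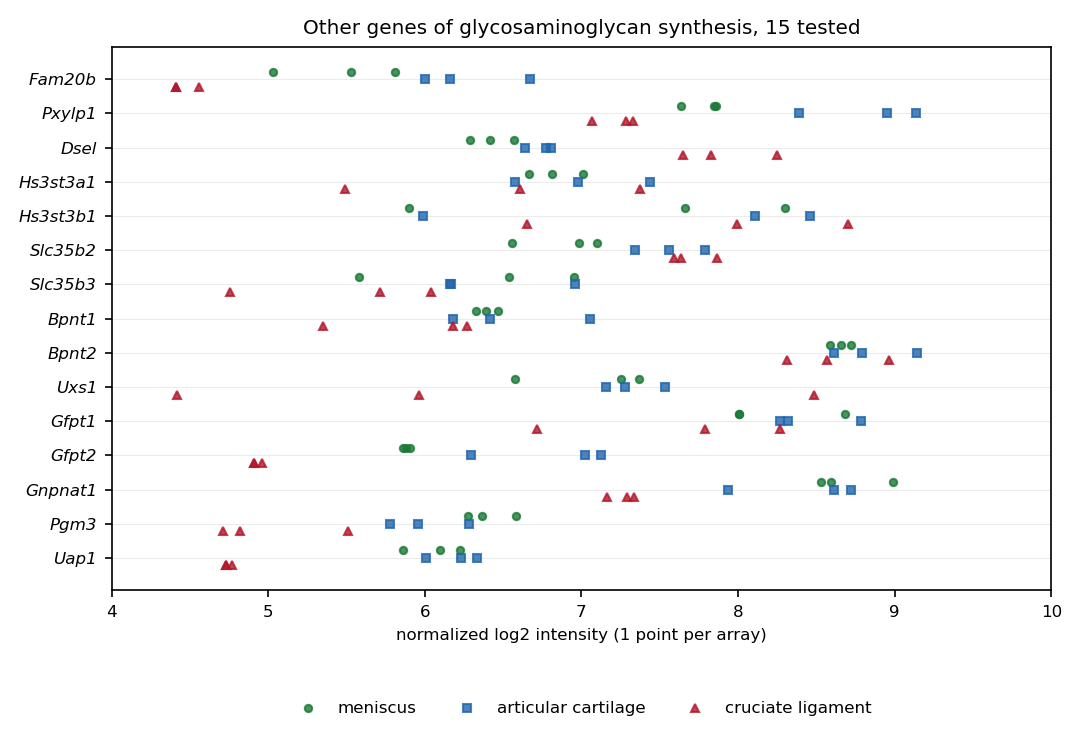
Normalized log2 intensity of 15 further genes of glycosaminoglycan synthesis, with 1 point per array and symbols as for the main genes. Dsel is higher on the 3 ligament arrays than on any other array, and Gfpt2, Uap1, Fam20b, Pgm3, Gnpnat1 and Pxylp1 are lower on them than on any other array.

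Among lysosomal enzymes that degrade the chains, 12 of 17 were tested. Between ligament and cartilage 2 (16.7%) were lower and 0 higher, against 11.3% and 3.84% of named genes, and between meniscus and ligament 1 (8.33%) was higher and 0 lower, against 9.32% and 2.63%. Idua, the iduronidase of dermatan and heparan sulphate, read 5.998, 7.02 and 6.45 in cartilage and 4.92, 4.51 and 4.90 in ligament, where it was not above background, and was at least 1.51-fold lower, or at least 1.29-fold relative to the median gene (limma, adjusted p = 0.00539). Arsb, which removes 4-O-sulphate from chondroitin and dermatan, read 5.36, 5.36 and 5.33 in cartilage, 5.63, 5.71 and 5.59 in meniscus and 4.41, 4.31 and 4.91 in ligament. Arsb was not above background in ligament, and both other tissues were too dim to bound a fold. It was called higher in meniscus than in ligament (adjusted p = 0.0129), a call lost without meniscus array 2. It was called lower in ligament than in cartilage (adjusted p = 0.0337), a call that held only without ligament array 3 among the 9 single arrays left out. Between meniscus and cartilage limma called 0 of 12, against 0.415% of named genes higher and 0.346% lower. Without adjustment p was under 0.05 for 0 higher genes and 1 lower gene, against 6.39% and 5.02% of named genes.

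Of 22 core proteins, which carry the chains, 17 were tested, with 3 (17.6%) lower and 2 (11.8%) higher in ligament than in cartilage, against 11.3% and 3.84% of named genes. Aggrecan (Acan), the main chondroitin sulphate proteoglycan of cartilage, read 9.14, 9.84 and 9.28 in cartilage and 7.64, 7.03 and 6.35 in ligament, 4.53-fold lower relative to the median gene (limma, adjusted p = 0.00396), with a second probe at -0.58. The heparan sulphate glypican Gpc3 was lower in ligament by 1.26 ± 0.24, or by 1.03 relative to the median gene (adjusted p = 0.00958). Gpc2, another glypican, was called lower as well (adjusted p = 0.0204), but it was not above background in ligament and its cartilage mean of 5.84 was too low to bound a fold. The call of Gpc2 was lost without cartilage array 1 or 3. Versican (Vcan), a large chondroitin sulphate proteoglycan of loose matrix, read 10.12, 10.23 and 10.09 in ligament, 10.79, 10.32 and 10.47 in meniscus and 9.32, 8.93 and 9.24 in cartilage. It was higher than in cartilage by 0.98 ± 0.21 in ligament, or 1.22 relative to the median gene (adjusted p = 0.0166), and by 1.36 ± 0.21 in meniscus (adjusted p = 0.028), with all arrays apart. The call in ligament was lost without cartilage array 2 or 3. Fmod, which carries keratan sulphate, was the other gene higher in ligament, but its second probe differed by -0.67, and with the mean of both probes it no longer passed (adjusted p = 0.801).

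In meniscus against cartilage, Vcan was higher (5.88%) and Cspg4 and Fmod were lower (11.8%) among these 17 genes, against 0.415% and 0.346% of named genes. Cspg4, a membrane chondroitin sulphate proteoglycan, read 6.53, 6.34 and 6.93 in meniscus and 8.72, 8.63 and 8.10 in cartilage, a difference of -1.89 ± 0.29 (limma, adjusted p = 0.028). Fmod read 5.94, 5.85 and 6.45 against 7.29, 7.42 and 7.53, a difference of -1.33 ± 0.23 (adjusted p = 0.0416), and its second probe differed by -1.56. Meniscus and cartilage were apart on all arrays for these 3 genes, but each call was lost when any single meniscus or cartilage array was left out. Against ligament, 3 core proteins were higher in meniscus and 3 lower (17.6% each), against 9.32% and 2.63% of named genes. Fmod differed by -2.19 ± 0.23 (-2.45 relative to the median gene), Cspg4 by -1.41 ± 0.29 (-1.68) and Gpc1 by 1.66 ± 0.46 (1.40). Gpc2, not above background in ligament, was at least 1.57-fold higher, or at least 1.31-fold relative to the median gene. Gpc3 was the other gene higher and the syndecan Sdc3 the other gene lower. The calls of Fmod and Gpc2 held without any single array, and those alone remained without meniscus array 1 or 2.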

How the data were processed

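Expression was measured on 9 Illumina bead arrays, 3 for each tissue, grouped by the tissue named in the labels. The deposited scanner tables hold a signal intensity and a detection p-value per probe, and the submitters' processing notes name GenomeStudio without a version. A deposited value table holds the authors' processed intensity per probe, by a method not stated in the labels, and it was used for 1 alternative, in meniscus against cartilage. Scanner rows carry no gene names, so each of the 45281 rows was paired with a value-table row of like ranks over the arrays (median largest rank difference 96 places, 4549.5 to the second nearest row), and symbols came from the platform annotation.

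Signals were corrected and quantile normalized with limma 3.58.1 (neqc, offset 16; R 4.3.3) and put on the log2 scale, and the number of arrays limits their precision. Probes with a detection p below 0.01 on all 3 arrays of a tissue were kept (12538 probes, 9166 features, 7234 named genes), and the kept probe with the highest mean stood for its gene. A gene is called not above background in a tissue where the probe's detection p was below 0.01 on none of its arrays. Tissues were compared in 1 limma fit of all 9 arrays, with Benjamini-Hochberg adjustment across all features. The fit was tested on simulated data. Per-array values are given for genes called in a contrast or by the F test and for up to 4 further genes per step with the largest F, and other pathway lists have values for up to 4 called genes per contrast; genes named beyond that were chosen after their values were seen. The genes and lists were chosen with earlier results of these data known. Alternatives covered normalization, background correction, the detection filter, the choice of probe, array weights, a replicate block, the arrays in the fit and each array left out.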

Additional observations from a re-analysis of the deposited data

How the results depend on the processing

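The calls of Papss2, Slc26a2 and Ugdh between ligament and cartilage, and of Ugdh between meniscus and ligament, held under every alternative that could test them, and no difference changed sign among those that had passed. The count between meniscus and cartilage, 0 in the fit of all 9 arrays, became 1 with normexp correction at an offset of 50 or with only probes detected on all 9 arrays (Papss2 lower), 3 with array weights per tissue (Chst15 higher, Papss2 and Slc26a2 lower), and 2 with only these tissues in the fit, with their 6 arrays normalized alone, or with the authors' processed values (Chst15 higher and Papss2 lower). With probes detected on all 9 arrays, which left 10 of the genes, 1 was called between meniscus and ligament. There were 3 calls between ligament and cartilage (Ext2 higher, Papss2 and Ugdh lower) and 2 by the F test. The median difference of these 10 genes was 0.22, 0.12 and 0.16 in the 3 contrasts. For all 27 tested genes it was -0.29, 0.42 and -0.54. This filter left the values of the 10 genes unchanged, so these medians differ by the genes they cover. With cyclic loess the median difference between meniscus and ligament was 0.13. Array weights per tissue left 3 calls between ligament and cartilage, without Chsy1 and Hs6st2; the weights were 1.60, 1.49 and 0.419 for meniscus, cartilage and ligament. Leaving out single arrays gave 0 to 0 calls between meniscus and cartilage, 1 to 5 between meniscus and ligament, 4 to 8 between ligament and cartilage and 3 to 7 by the F test. The replicate numbers were not said to mark a litter or day. Samples of 1 number correlated by -0.03 to 0.15 in their deviations (1 of 9 pairs over 0.1), and samples of unlike number by -0.13 to 0.06. With so few arrays these values cannot tell whether samples of 1 number shared a litter or day. With a replicate block the counts were 0, 2, 4 (without Chsy1) and 4 (F test, without Hs6st2), and the calls of Vcan, Cspg4 and Fmod between meniscus and cartilage went from 3 to 0. With the median gene taken off before the test, chosen after seeing the data, 5 genes were called between ligament and cartilage, with Ext2 in place of Chsy1, and 2 between meniscus and ligament. The alternatives were run on the other pathway lists after seeing the data: 2 further synthesis genes (Gfpt2 and Pxylp1) passed as lower in meniscus than in cartilage with array weights, and Idua alone of the lysosomal genes kept its call against cartilage wherever it was tested. Apart from the change of genes under that filter, causes of these shifts were not tested. A low signal over background limits the ligament values of genes not detected there.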
